A study of Arabidopsis thaliana with 7 samples.

Results

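The LRX genes of Arabidopsis thaliana encode leucine-rich repeat extensins, cell wall proteins with a folded N-terminal part and a long proline-rich tail. The data described here are chromatin immunoprecipitation sequencing (ChIP-seq) peaks of 3 E2F transcription factors and of their partner RBR at 5 of these genes, LRX1 (AT1G12040), LRX2 (AT1G62440), LRX3 (AT4G13340), LRX4 (AT3G24480) and LRX5 (AT4G18670), out of 27444 nuclear protein-coding genes. The set was selected on a measured value, the fold enrichment of the E2FA replicate 1 peak at the 3' end of LRX3, which was the highest in that list, and its 4 relatives were taken with it by name. That value is therefore given as a description and supports nothing. For each gene, every peak was taken that touched the window from 1000 bp before the annotated transcription start site (TSS) to 1000 bp past the annotated gene end.

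There were 7 libraries, all from 12-day-old whole seedlings of the Col0 accession grown on agar, in which E2FA, E2FB, E2FC or RBR carried a GFP tag under its own promoter and was precipitated with an anti-GFP antibody. Replicate 1 held E2FA, E2FB, E2FC and RBR, and replicate 2 held E2FA, E2FB and RBR, so E2FC was measured once. A whole seedling mixes many cell types, and a difference in the share of cells bound cannot be told apart from a difference in binding per cell. No library of untagged plants was analysed here, and the peak calling command given in the study names no control library. The replicate 1 lists are broad peaks, whose fold enrichment is an average over the peak, and the replicate 2 lists are narrow peaks with a summit, where the fold is read. An effect of the replicate and one of the peak format cannot be told apart, and a fold can be compared only within its own list. For that reason each peak is also given by its rank or by its percentile, the share of peaks of the same list with a lower fold. No test between proteins was run, and every value below is a description.

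E2F proteins bind DNA as dimers with DP partners and control genes of the cell cycle and DNA replication. E2FA and E2FB are known mainly as activators and E2FC as a repressor, and RBR, the plant retinoblastoma relative, binds E2Fs and restrains them. LRX proteins sit in the wall outside the cell, where the leucine-rich repeats bind RALF peptides, small secreted signals that also reach the receptor kinase FERONIA, and the extensin tail anchors the protein in the wall. LRX1 and LRX2 are known from root hairs, and LRX3, LRX4 and LRX5 from the growing shoot and root, where they act redundantly in cell expansion.

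All 5 genes were annotated on TAIR10 with a single exon. LRX1 lay on chr1:4069992-4072681 on the plus strand and LRX2 on chr1:23112933-23115293, also on the plus strand. LRX3 occupied chr4:7758275-7761362 on the plus strand, LRX4 chr3:8901154-8902835 on the minus strand and LRX5 chr4:10275462-10278794 on the minus strand. The encoded proteins had 744, 786, 760, 494 and 857 residues in that order. The extensin part was found as the stretch in which proline was dense. It started at residue 368 in LRX1, 370 in LRX2, 363 in LRX3, 374 in LRX4 and 384 in LRX5 and ran to the C-terminus. Proline made up 39.7% (LRX4) to 53.3% (LRX3) of that stretch and 5.36% to 6.01% of the residues before it. LRX4 stood apart by the shortness of its stretch, 363 bp against 1131 to 1422 bp in the other 4. No UTR was annotated for LRX2 and no 3' UTR for LRX4, so that their annotated ends are start or stop codons. Each of the 3607 to 5258 stretches of 76 bp in every gene's window occurred once in the nuclear genome.

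The lists held 24883 to 28742 peaks, with a median width of 436 to 610 bp. The highest fold was 3.21 to 4.34 in the replicate 1 lists and 69.4 to 119 in the replicate 2 lists. The 5 windows held 62 peaks, 33 from replicate 1 and 29 from replicate 2. LRX5 had 21 of them, LRX4 had 17, LRX3 had 13, LRX2 had 7 and LRX1 had 4. LRX2, LRX3, LRX4 and LRX5 had a peak in all 7 lists and LRX1 in 3.

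**Figure D1:**
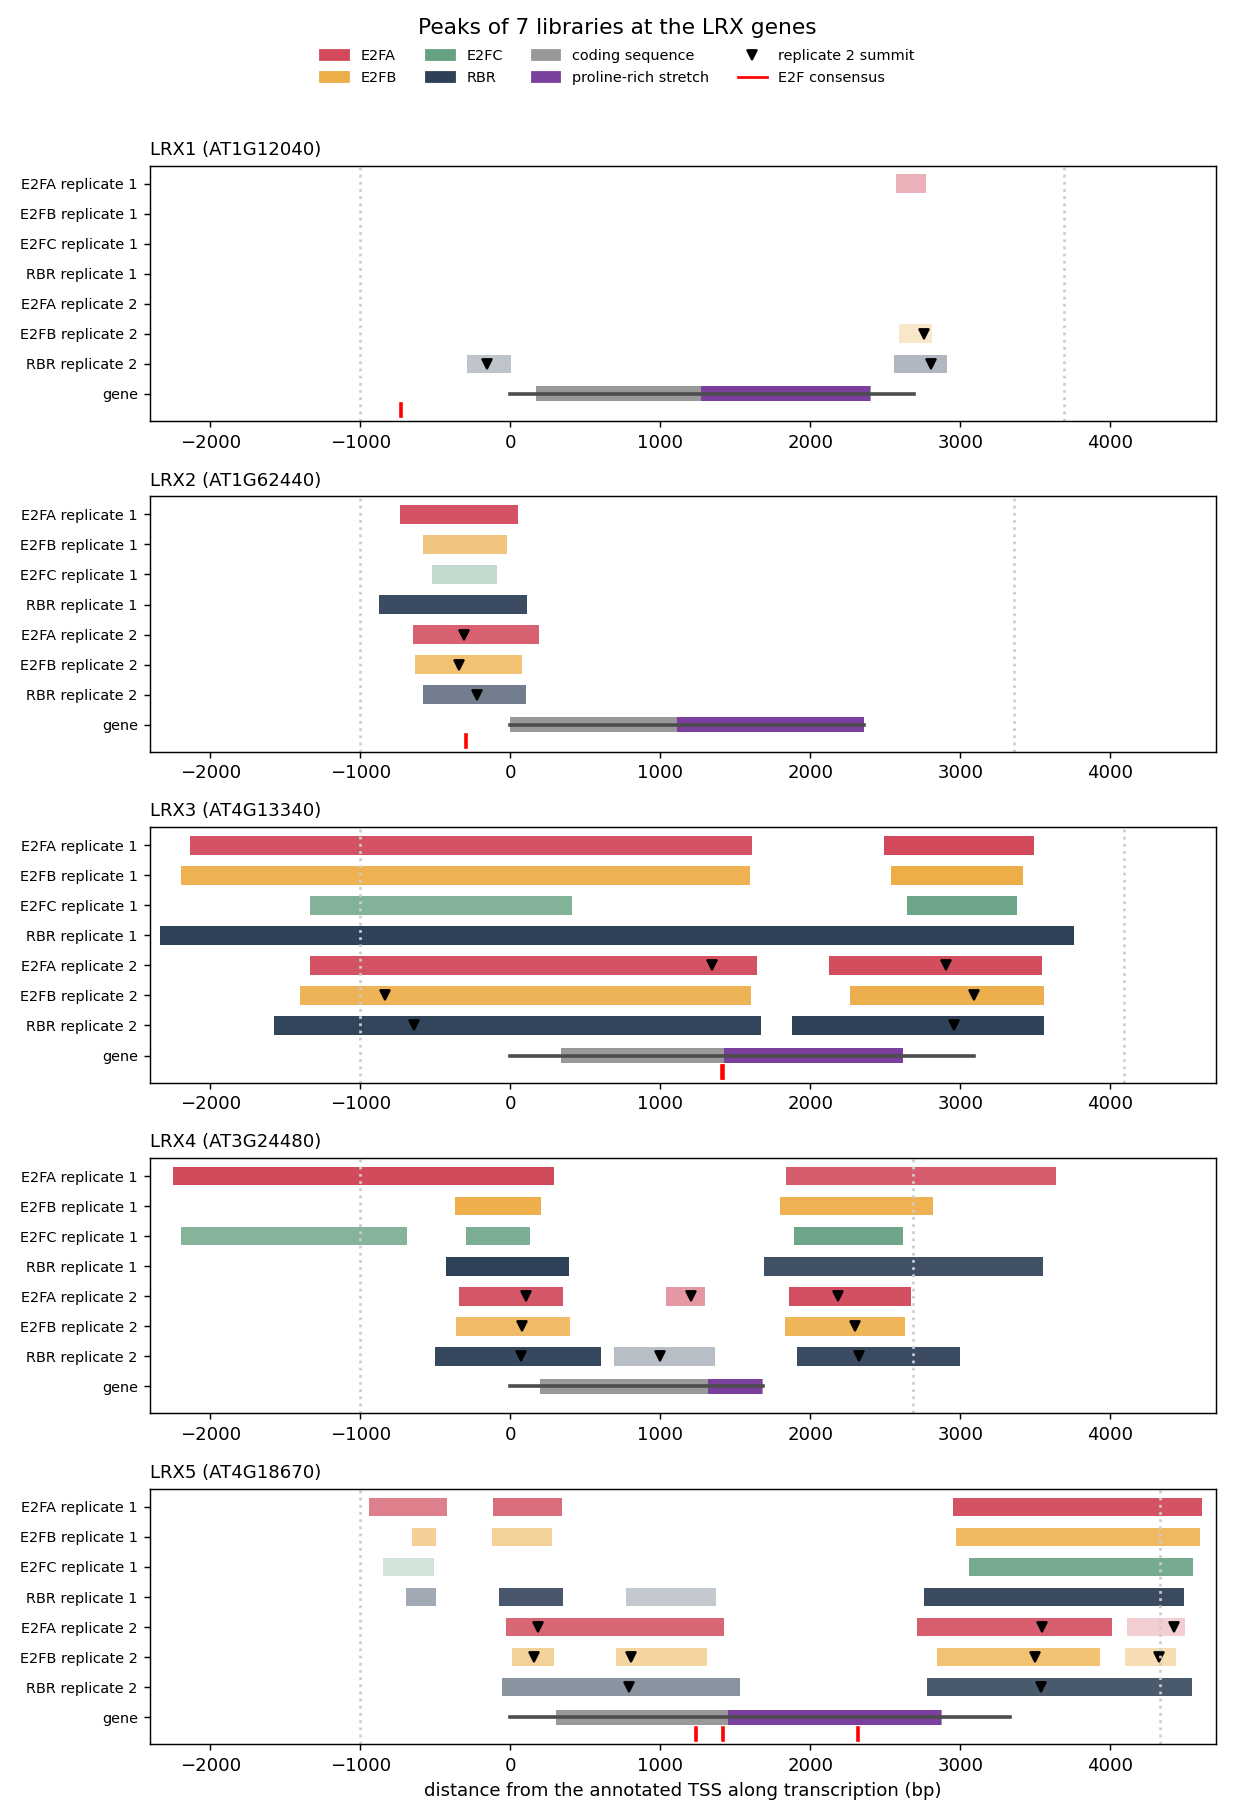
Peaks of the 7 libraries along each LRX gene. The x axis is the distance in bp from the annotated TSS in the direction of transcription, each bar is a peak (darker for a higher percentile in its list), black triangles are replicate 2 summits, red ticks are E2F consensus matches, grey is coding sequence, purple the proline-rich stretch, and dotted lines bound the window. Peaks stand upstream of LRX2 in 7 lists, flank LRX4 on both sides, and cover LRX3 apart from part of its proline-rich stretch in 5 of 7 lists. In RBR replicate 1 they cover it without a gap and in E2FC they leave most of its coding sequence free.

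A peak near a gene was common in these lists, and the counts of LRX genes are to be read against that. A peak touched the window of all 5 genes in E2FA replicate 1, E2FB replicate 2 and RBR replicate 2, where 84.5%, 80.4% and 83.4% of all protein-coding genes had one. It touched 4 of the 5 in E2FB replicate 1, E2FC, RBR replicate 1 and E2FA replicate 2, against 80.7%, 68.5%, 82.9% and 75.7% of all genes. With 5 genes, these shares lay near the background. A peak in the window in all 7 lists was found for 53.1% of all genes and for 4 of the 5 LRX genes.

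Position was scored by a reference point, the midpoint of a replicate 1 peak or the summit of a replicate 2 peak, within 500 bp of the gene end or of the TSS. At the gene end, 3 LRX genes had such a peak in E2FA replicate 1 (29.5% of all genes), 2 in E2FB replicate 1 (29.1%), 2 in E2FC (20.2%) and 1 in RBR replicate 1 (33.0%). The count was 3 in each of the replicate 2 lists of E2FA (30.8%), E2FB (33.2%) and RBR (36.2%). LRX5 was counted in all 7 lists, as were 6.60% of all genes, and LRX3 in 6. In E2FA, E2FB and E2FC of replicate 1 the point counted for LRX5 lay nearer to the end of its neighbour AT4G18660. At the TSS, 4 LRX genes were counted in E2FB replicate 1 (52.2%). The count was 3 in each of the others, where the shares of all genes were 49.0% in E2FA replicate 1, 37.8% in E2FC, 54.2% in RBR replicate 1, 55.3% in E2FA replicate 2, 60.2% in E2FB replicate 2 and 61.5% in RBR replicate 2. LRX2 alone of the 5 had a TSS peak in all 7 lists, against 17.8% of all genes. The set as a whole was thus not far from the background at its starts, and the 17 gene end peaks came mainly from LRX3 and LRX5.

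LRX3 carried the peak on which the set was chosen. In E2FA replicate 1 the peak on chr4:7760762-7761766, 1005 bp wide, had a fold of 4.34 and ranked 1 of 27771. The next peaks of that list had folds of 4.15 at RNR1, the gene for the large ribonucleotide reductase subunit, 4.11 at TPR3, a TOPLESS-related corepressor, 4.04 at AT3G27640 and 4.03 at RPA2, a subunit of replication protein A. RNR1 and RPA2 supply DNA synthesis, whereas LRX3 is a wall protein gene. By -log10 q, the LRX3 peak ranked 3 in that list.

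The same end of LRX3 was high in the lists that did not choose it. In E2FB replicate 1 the peak had a fold of 3.26 and ranked 13 of 26356, or 58 by -log10 q. In E2FC it had a fold of 2.23 and ranked 1542 of 24883, the lowest placing of the 7. In replicate 2 the ranks were 699 of 25897 for E2FA (fold 7.15), 718 of 27033 for E2FB (fold 7.59) and 331 of 28742 for RBR (fold 7.18). These placed it between the 93.8 and the 99.95 percentile in those 5 lists. RBR replicate 1 had no separate peak there, because a single peak of 6089 bp ran from upstream of LRX3 to past its end, with a fold of 2.73 and rank 117 of 27090. The E2FA placing was thus 1 in replicate 1 and 699 in replicate 2, and the 2 formats differ in what the fold averages over.

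The bases shared by the peaks of all 7 lists at this end formed an interval of 731 bp, chr4:7760920-7761650, which began shortly past the stop codon and covered the rest of the 470 bp 3' UTR and 288 bp beyond it. The replicate 2 summits lay 289 bp (E2FA), 341 bp (RBR) and 475 bp (E2FB) past the stop codon, within 186 bp of each other. The first 2 fell in the 3' UTR and the E2FB summit 5 bp past the annotated end. The sequences at these summits are shown because the strongest E2FA signal of replicate 1 lies over them. They are given 5′ to 3′ on the gene strand of TAIR10, in lower case with no capitals because they hold no E2F consensus, the first 2 centred on the summit (chr4:7761166-7761195 and chr4:7761218-7761247) and the last starting at the base after the gene end (chr4:7761363-7761612).
LRX3 3' UTR at the E2FA summit: tttatttgttcattatcaatatccttcttt
LRX3 3' UTR at the RBR summit: tttccaaattggtgtaaacaaacaaatatg
LRX3 downstream of the gene end: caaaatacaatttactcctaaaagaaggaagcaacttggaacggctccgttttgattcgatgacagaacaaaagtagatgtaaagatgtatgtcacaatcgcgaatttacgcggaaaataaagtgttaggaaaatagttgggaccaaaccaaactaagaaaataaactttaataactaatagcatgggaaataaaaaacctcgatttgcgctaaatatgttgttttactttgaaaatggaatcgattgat
These runs were AT-rich, with a GC content of 20.0%, 26.7% and 32.8%.

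The 3' end of LRX3 was also far from any start of transcription in the annotation. The next TSS, that of AT4G13345 (MEE55), lay 3698 bp past the end, and the gene's own TSS 3087 bp before it. A further ranking used only gene end peaks whose reference point was over 1000 bp from any TSS, a choice made after seeing the data. There LRX3 ranked 1 of 2242 in E2FB replicate 1 and 78 of 1885 in E2FC. In replicate 2 it ranked 32 of 2417 for E2FA, 32 of 2512 for E2FB and 33 of 2832 for RBR. In E2FA replicate 1 its rank of 1 of 2172 followed from the choice of the set and supports nothing.

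The 5' side of LRX3, defined as the 1000 bp before the TSS and the first 500 bp of the gene, was covered by wide peaks in all 7 lists. Leaving aside the spanning RBR peak, they were 1746 bp (E2FC) to 3793 bp (E2FB replicate 1) wide, and the bases common to all 7 lists ran for 1746 bp on chr4:7756937-7758682. The fold was 2.61 in E2FA replicate 1, 2.11 in E2FB replicate 1 and 1.86 in E2FC. The replicate 2 folds were 4.999 (E2FA), 5.24 (E2FB) and 6.27 (RBR). In each of the 6 lists with separate peaks, the peak on the 3' side, that is the last 500 bp of the gene and the 1000 bp past it, had the higher fold. The E2FA list of replicate 1 is among them and chose the gene. The replicate 2 summits of the 5' peaks did not fall together. Relative to the TSS they stood at -835 bp for E2FB, -642 bp for RBR and 1345 bp for E2FA, the last inside the coding sequence.

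LRX4 had peaks on both sides in all 7 lists, and the order of the sides changed with the list. On the 5' side the fold in replicate 1 was 3.05 for E2FA (rank 359), 2.64 for E2FB (rank 255), 1.94 for E2FC (rank 4601) and 2.70 for RBR (rank 147). In replicate 2 it was 4.50 for E2FA (rank 2649), 4.16 for E2FB (rank 5893) and 5.87 for RBR (rank 1443). On the 3' side the folds were 2.34, 2.12, 2.17 and 2.17 in replicate 1 and 5.75, 4.99 and 5.36 in replicate 2, in the same order of proteins. The 5' peak was the higher in 4 lists, namely E2FA, E2FB and RBR of replicate 1 and RBR of replicate 2, and the 3' peak in the other 3. For E2FA and E2FB the order of the sides turned between replicates.

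The replicate 2 summits of the LRX4 promoter peak fell close together. They stood 72 bp (RBR), 79 bp (E2FB) and 101 bp (E2FA) past the TSS, a span of 29 bp inside the annotated 5' UTR. The bases common to the 7 lists made up 429 bp on chr3:8902703-8903131, from -296 to 132 bp of the TSS. The 250 bases before the TSS, chr3:8902836-8903085 on the minus strand, lie within that interval and are shown because the LRX4 promoter was enriched in every list without an E2F consensus.
LRX4 upstream: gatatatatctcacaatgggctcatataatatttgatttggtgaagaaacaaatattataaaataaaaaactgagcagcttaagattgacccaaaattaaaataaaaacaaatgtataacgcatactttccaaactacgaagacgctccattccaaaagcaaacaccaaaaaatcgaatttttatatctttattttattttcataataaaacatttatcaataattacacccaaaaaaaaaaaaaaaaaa
Its GC content was 24.0%.

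The strong 3' peaks of LRX4 lay past the annotated gene end, which is the stop codon, with summits 505 bp (E2FA), 616 bp (E2FB) and 644 bp (RBR) beyond it in replicate 2 and midpoints 573 to 1054 bp beyond it in replicate 1. They thus missed the limit of 500 bp, and the single list that counted LRX4 at its end, E2FA replicate 2, did so through a second peak in the coding sequence with its summit at -479 bp and a percentile of 41.9. The bases common to all 7 lists on this side spanned 711 bp, chr3:8900216-8900926. The next gene in that direction, AT3G04675, was 5000 bp away.

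LRX5 was the third gene with a 3' peak in every list and the one with the most peaks. The 3' side fold in replicate 1 was 2.61 for E2FA (rank 1680), 1.905 for E2FB (rank 4706), 2.01 for E2FC (rank 3606) and 2.28 for RBR (rank 2011). In replicate 2 it was 3.999 for E2FA (rank 3875), 3.72 for E2FB (rank 8212) and 4.56 for RBR (rank 5007). The strongest 5' peak was lower in all 7 lists, at 2.09, 1.59, 1.41 and 2.09 in replicate 1 and 3.65, 2.79 and 2.77 in replicate 2. The gap was widest in E2FC, where the 3' peak stood at the 85.5 percentile and the 5' peak at the 4.73.

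The 3' peaks of LRX5 shared 873 bp in all lists, chr4:10274868-10275740, while its 5' peaks had no base common to all 7. The replicate 2 summits on the 3' side lay 623 bp (E2FB), 658 bp (RBR) and 669 bp (E2FA) past the stop codon, a span of 46 bp, and 167 to 213 bp past the gene end. This end faces another gene end, since AT4G18660 runs towards LRX5 and stops 589 bp away. The replicate 1 midpoints of E2FA, E2FB and E2FC lay 448, 451 and 471 bp past the LRX5 end, nearer to that of AT4G18660. In those lists the position cannot be assigned to LRX5 alone. The TSS closest to the end of LRX5 was 1982 bp distant.

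**Figure D2:**
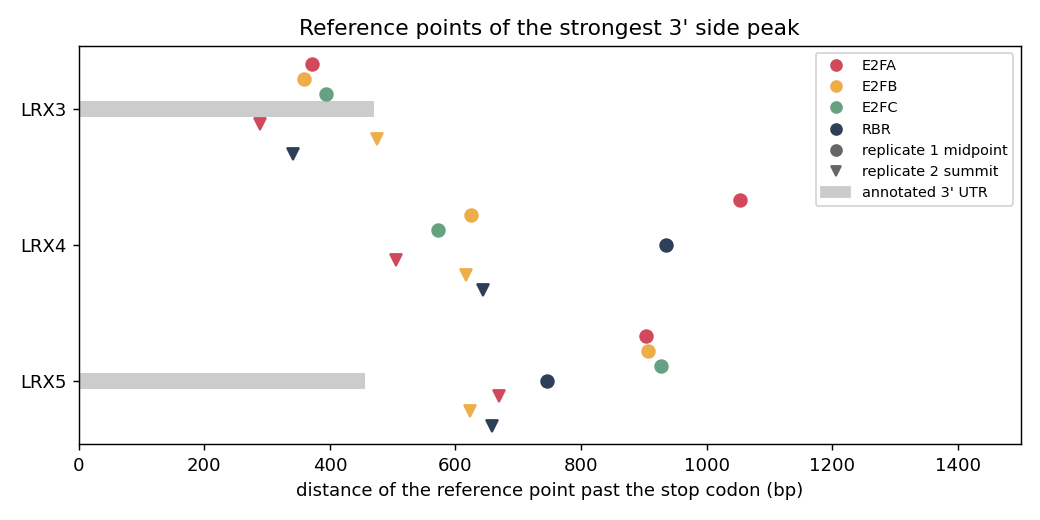
Reference points of the strongest 3' side peak of LRX3, LRX4 and LRX5 in each list, as the distance in bp past the stop codon (x axis). Circles are midpoints of replicate 1 peaks, triangles are replicate 2 summits, colours are the proteins and grey bars are annotated 3' UTRs. The LRX3 points lie 289 to 475 bp past the stop codon, and those of LRX4 (505 to 1054 bp) and LRX5 (623 to 927 bp) lie further out.

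LRX2 had the reverse arrangement, with 1 upstream peak in each of the 7 lists and none at its end. The fold in replicate 1 was 2.60 for E2FA (rank 1754), 1.70 for E2FB (rank 10144), 1.49 for E2FC (rank 20116) and 2.25 for RBR (rank 2269). In replicate 2 it was 3.90 for E2FA (rank 4231), 3.72 for E2FB (rank 8212) and 3.32 for RBR (rank 12120). The placing ranged from the 19.2 percentile in E2FC to the 93.7 in E2FA replicate 1, and RBR stood at the 91.6 percentile in replicate 1 and the 56.9 in replicate 2. The replicate 2 summits stood at -343 bp (E2FB), -313 bp (E2FA) and -223 bp (RBR) from the annotated TSS, which here is the start codon.

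The bases common to the 7 LRX2 peaks, 437 bp on chr1:23112409-23112845, held 1 match to the E2F consensus, searched as TTNNCGNN with each N a C or a G, on both strands. Matches on opposite strands can overlap, since the pattern can read into its own reverse complement. The match began at -298 bp, and the summits lay -45 bp (E2FB), -15 bp (E2FA) and 75 bp (RBR) from it. The sequence around it, chr1:23112539-23112738 on the plus strand, is shown because it is the only match in a promoter of the 5 genes that lay under peaks. Capitals mark the match.
LRX2 upstream: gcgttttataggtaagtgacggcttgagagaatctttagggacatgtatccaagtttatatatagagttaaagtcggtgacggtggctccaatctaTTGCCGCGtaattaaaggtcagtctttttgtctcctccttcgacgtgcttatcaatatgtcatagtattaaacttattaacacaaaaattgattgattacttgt
Such a match stood in 4.31% of genome tiles of 437 bp and in 7.51% to 10.8% of all peaks of a list.

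LRX1, the root hair partner of LRX2, had only low peaks. In RBR replicate 2 a peak with a fold of 1.82 (rank 26216 of 28742) lay at its TSS, with the summit at -155 bp. At its end there were peaks in E2FA replicate 1 (fold 1.58, percentile 23.9), E2FB replicate 2 (fold 1.91, percentile 4.88) and RBR replicate 2 (fold 2.04, percentile 16.5). The reference points of these end peaks lay 5 to 80 bp from the TSS of the next gene, AT1G12050, which begins 60 bp past the end of LRX1 and encodes a fumarylacetoacetate hydrolase, so the position cannot be assigned to LRX1. LRX1 also had a consensus match upstream, at -728 bp, printed here as chr1:4069238-4069297 on the plus strand because no peak of any list covered it. It reads on the opposite strand, and capitals mark it.
LRX1 upstream: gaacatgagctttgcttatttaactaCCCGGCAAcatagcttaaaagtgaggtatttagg
The promoters of LRX1 and LRX2 thus both held the consensus within 1000 bp, and the peaks lay over the one of LRX2. The share of all genes with a match in the 1000 bp before the TSS was not computed, so no background stands beside these matches.

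**Figure D3:**
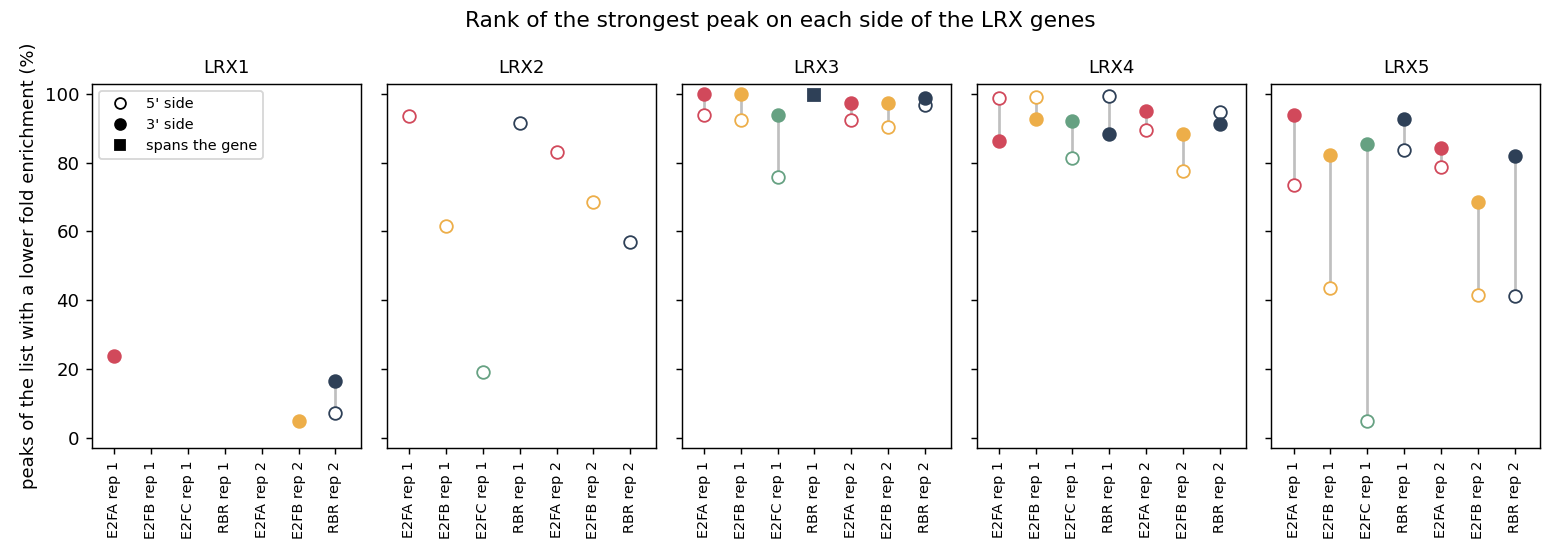
Percentile of the strongest peak on each side of the LRX genes (y axis, percent of peaks of the same list with a lower fold) in the 7 libraries (x axis). Open circles are the 5' side, filled circles the 3' side and the square a peak spanning the gene. LRX3 is at the 93.8 percentile or above on its 3' side, LRX5 is higher on the 3' than on the 5' side in 7 of 7 lists, LRX4 changes order, LRX2 has 5' peaks only, and LRX1 stays at or under the 23.9 percentile.

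Ordered by the median percentile of the 3' side over the lists with a separate peak, LRX3 was at 98.1 (6 lists), LRX4 at 91.4 (7 lists), LRX5 at 84.4 (7 lists) and LRX1 at 16.5 (3 lists), and LRX2 had none. The LRX3 median includes the E2FA replicate 1 value that chose the set, and the other LRX3 values ran from 93.8 to 99.95. The LRX4 values of 86.2 to 95.0 overlapped with the LRX5 values of 68.5 to 94.0, and with the E2FC value of LRX3. On the 5' side the order was LRX4 at 94.8 (7 lists), LRX3 at 92.5 (6 lists), LRX2 at 68.5 (7 lists) and LRX5 at 43.5 (7 lists). LRX1 came last at 7.28 (1 list). The ranges of LRX4 (77.4 to 99.5) and LRX3 (75.7 to 96.6) on that side overlapped almost entirely.

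Within the coding sequence the peaks covered little of the proline-rich stretch in all genes but LRX3, and LRX1 had no peak in its coding sequence. In 35 combinations of a gene and a list, the stretch was free of peaks in 24. The part of the coding sequence before it had the larger covered share in 22 and the stretch in 0, with equal shares in the others. Peaks of different lists overlap at a gene, so these combinations are not separate observations. No share over other genes was computed. The part before the stretch is also the nearer to the TSS. In LRX1 and LRX2 the stretch was free in all 7 lists. The covered share before it in LRX2, 0 to 16.9%, came from upstream peaks that reached past the start codon. In LRX5 the stretch was 0 to 12.2% covered and the coding sequence before it 0 to 100%. In LRX4 the stretch was 0 to 13.5% covered, and only in RBR replicate 2 at all. In LRX3 the covered share of the stretch was 0% in E2FC, 21.4% in E2FB replicate 1, 26.7% in E2FA replicate 1, 44.4% in E2FB replicate 2, 59.6% in E2FA replicate 2, 82.9% in RBR replicate 2 and 100% in RBR replicate 1. The coding sequence before it was fully covered in 6 lists and 6.72% covered in E2FC. The gap between the 5' and the 3' peak of LRX3 therefore fell on the proline codons in the other 5 lists with separate peaks.

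Base composition was read for the stretch, for the intervals under peaks and for whole peaks. The stretch had a GC content of 52.8% (LRX1) to 59.2% (LRX3), where the whole genome had 36.0%. The intervals under peaks of all 7 lists had 29.0% (LRX5, 3' side) to 33.2% (LRX2). The median peak had a GC content of 26.7% to 32.1% in the replicate 1 lists and 34.0% to 34.5% in the replicate 2 lists. The GC content of the coding sequence before the stretch was not computed, so the coding parts cannot be compared by base composition. The part of GC content in where the peaks lie was not tested.

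**Figure D4:**
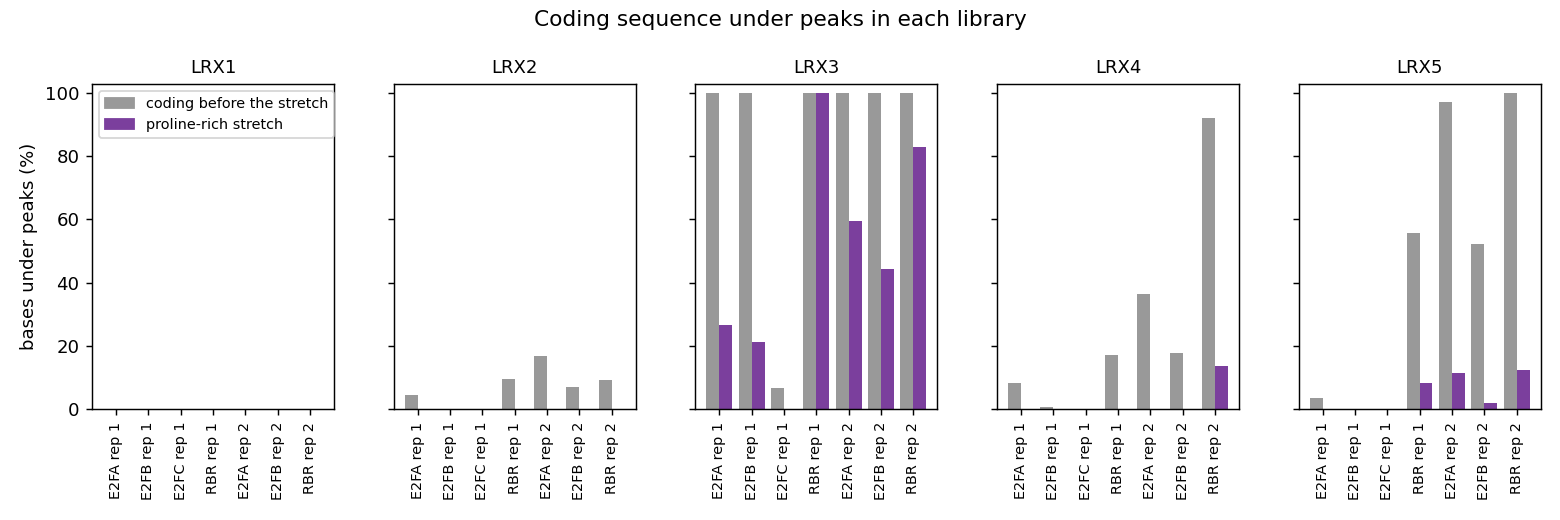
Share of the coding sequence under peaks (y axis, percent of bases) in each library (x axis), for the part before the proline-rich stretch (grey) and the stretch itself (purple). In no gene and list is the purple bar the higher, and the stretch of LRX3 ranges from 0 to 100%.

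None of the 17 gene end peaks of the LRX genes held the E2F consensus, where 7.997% (RBR replicate 1) to 11.4% (E2FA replicate 2) of all gene end peaks did. Peaks at the same gene overlap, so these 17 are not separate stretches of DNA. Of tiles as long as the LRX3 interval, 7.07% held it. LRX1, LRX2, LRX3 and LRX5 had at least 1 match in their windows and LRX4 had none, where 36.0% of all gene windows, of any length, had at least 1. The matches in the 5 windows numbered 7, with the overlapping pair of LRX3 counted as 2. Promoters of 250 bp held it in 2.75% of genes. The upstream matches of LRX1 and LRX2 lay further from the TSS than that, so this share is not their background.

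The matches of LRX3 were an overlapping pair in the coding sequence, which began 1412 and 1414 bp past the TSS, 9 bp before the proline-rich stretch and under the wide 5' peak of 6 lists. The E2FA replicate 2 summit of that peak lay -67 bp from the first of them, and the E2FB and RBR summits lay -2247 and -2054 bp from it. LRX5 had matches 1237 bp past the TSS, under peaks of 4 lists, 1416 bp past it, under 1 list (RBR replicate 2), and 2319 bp past it in the stretch, under none. The LRX3 pair and the LRX5 match at 1416 bp stand at aligned places of the coding sequence, which LRX4 also has. The 60 bases around them are shown for the 3 genes, from chr4:7759662-7759721 (LRX3, plus strand), chr3:8901503-8901562 (LRX4, minus strand) and chr4:10277344-10277403 (LRX5, minus strand), with the 10 bases of the LRX3 pair and those aligned with them in capitals.
LRX3 coding: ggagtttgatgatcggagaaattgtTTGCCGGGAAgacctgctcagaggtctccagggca
LRX4 coding: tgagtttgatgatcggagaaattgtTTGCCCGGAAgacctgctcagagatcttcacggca
LRX5 coding: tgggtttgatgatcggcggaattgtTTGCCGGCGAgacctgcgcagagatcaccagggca
Of the 60 bases, LRX4 had 55 and LRX5 had 51 in common with LRX3, and of the 10 in capitals 9 and 8. LRX3 held 2 matches there, LRX5 held 1 and LRX4 held 0. In LRX1 and LRX2 the most similar stretch of the coding sequence had 27 and 31 of the 60 bases in common, close to the next best places in those genes (27 and 28). LRX3, LRX4 and LRX5 thus carry a similar sequence there. The 10 bases in capitals lay wholly under a peak in 6 lists at LRX3 and in RBR replicate 2 at LRX4 and at LRX5. A peak of E2FA replicate 2 reached part of the 60 bases at both LRX4 and LRX5.

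Over all protein-coding genes, the pattern of gene end percentiles over the 7 lists, with 0 where no reference point fell within 500 bp of the end, was closest to LRX3 in AT1G30814, LTO1, NAC095, AT5G23460 and ENODL17. The distance was 6.68 percentile points for AT1G30814 and 6.89 for LTO1, which encodes a thiol oxidoreductase of the thylakoid lumen. It was 13.2 for NAC095, a NAC domain protein, 13.4 for AT5G23460 and 13.8 for ENODL17, an early nodulin-like protein. All 5 share the 0 in RBR replicate 1, which for LRX3 reflects the spanning peak. By this coding a gene with a high gene end percentile in RBR replicate 1 could not be close to LRX3. The distance also used the E2FA replicate 1 value that chose the set. The ends of these 5 genes lay 29 to 521 bp from an annotated TSS, against 3087 bp at LRX3.

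The genes of the surrounding pathway were counted with the same rules. The list held 26 genes, of which 6 were further LRX genes, 6 encoded RALF peptides, 11 receptor kinases of the FERONIA family or their LLG partners, and 3 classical extensins. A gene end peak was found for 11, 9, 9 and 6 of the 26 in replicate 1 (E2FA, E2FB, E2FC and RBR) and for 15, 10 and 8 in replicate 2 (E2FA, E2FB and RBR). A TSS peak was found for 7, 10, 7 and 3 and for 8, 13 and 13 of them. The TSS shares lay below those of all genes given above in every list. The gene end shares lay above those of all genes in 5 of the 7 lists, the exceptions being both RBR lists. The excess was small in E2FB replicate 2, with 10 of 26 against 33.2%. Some of these end peaks lay close to a TSS, at 52 to 79.5 bp in AT1G49490 and 36 to 264.5 bp in AT3G19020. Others, as in AT3G22800 (1874 to 2406 bp), lay far from one. These differences were not tested.

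ANX1, a receptor kinase that keeps pollen tubes intact, was the only 1 of the 26 with a gene end peak in all 7 lists, at percentiles from 3.496 in RBR replicate 1 to 59.3 in E2FA replicate 2. Its peaks lay 141 to 392 bp from an annotated TSS. HERK1, a receptor kinase of cell elongation, had a TSS peak in all 7 lists, from the 7.96 percentile in E2FA replicate 2 to the 87.8 in E2FB replicate 1. FERONIA (FER) had one in 6, from the 29.7 percentile in E2FC to the 99.2 in RBR replicate 2, and none in RBR replicate 1. The highest gene end percentile of the 26 was that of RALFL33, a RALF peptide gene, at 99.7 in RBR replicate 2, with the summit 327 bp from a TSS. RALFL33 had a gene end peak in 3 of the 7 lists, and RBR replicate 1 was not among them. The 6 further LRX genes had gene end peaks in 3 or 4 lists each.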

How the data were processed

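The labels and processing notes describe GFP-tagged seedlings, anti-GFP ChIP, Trimmomatic 0.38, Bowtie2 2.3.5, SAMtools 1.9 and MACS2 2.2.7.1 on TAIR10, while the peak names of replicate 2 carry MACS3 and the study's methods give a later SAMtools. The authors deposited 1 peak list per library with a fold enrichment (a ratio over background), −log10 p-values and −log10 q-values, a browser score (not used) and, in replicate 2, the summit offset. Replicate 1 values are averages over broad peaks. The peak files hold no read counts. Read totals that the study gives per protein were not used here, so no precision is given for a fold. The labels and the methods disagree on seedling age, and the labels were followed. The titles call the second set Bioreplicate 2. The study's reporting summary gives 2 biological replicates for each ChIP-seq experiment, although E2FC had 1 library here. Elsewhere the same summary excepts ChIP-seq from its statement on biological repeats. Whether the 2 replicates came from separate plant cultures was not stated.

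Peaks were joined to RefSeq gene models of TAIR10 with Python 3.11.15, numpy 2.4.6, pandas 2.3.3 and Biopython 1.88, and plotted with matplotlib 3.10.9. The scripts were tested on simulated data. The proline-rich stretch was found with windows of 50 residues holding at least 30% proline. Members and gene lists were chosen with earlier results of these data known. Named genes were the 5 members, their nearest neighbours, the 5 genes closest to LRX3 by Euclidean distance, and pathway genes with a gene end peak in all 7 lists or the highest percentile. HERK1, FER and the genes at ranks 2 to 5 of E2FA replicate 1 were named after their values were seen. No test was run. The alternatives concerned window size, reference point, thresholds, ranking measure and the motif.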

Additional observations from a re-analysis of the deposited data

How the results depend on the processing

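The counts are sums over the 7 lists of LRX genes with a peak. A fold over 3 with q under 0.01 lowered them from 31 to 15 in the gene window, from 17 to 8 at the gene end and from 22 to 7 at the TSS, and removed most replicate 1 peaks, whose folds are averages. A limit of 250 bp lowered the TSS count to 13. The LRX3 gene end peak of E2FC, at the 93.803 percentile, moved to 92.1 by q, 92.2 by p, 93.84 among gene end peaks and 95.9 among those over 1000 bp from any TSS. That of RBR replicate 2, at 98.7997, moved to 98.6 and 98.7994 in those 2 sets. RBR had 1 LRX gene with a gene end peak in both replicates, 1 to 3 when either replicate was left out, and 2 within 1000 bp. The gene end peaks with the consensus numbered 0, against 5 for the pattern read backwards (NNGCNNTT) and 1 for TTNNCNNN, each N a C or a G. The causes were not tested.

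Of 133 comparisons of single lists, 109 stayed near their value and 24 moved. Chosen after seeing the data were the distance from the stop codon, overlap with the 3' side, overlap with the gene end, and the distance of over 1000 bp from any TSS. The first 2 raised the gene end count from 17 to 22 and 24, mainly through LRX4. No paired analysis was made, since no test was run.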
